A study of Mus musculus with 6 samples.

Results

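Ptpn13, Calml3, Naaladl2, Creb3l2, Arid5b, Mtap and Apc are 7 of 21911 protein-coding genes in the mouse annotation, described here for the open chromatin around them in the embryonic palate. They were chosen because many regions open in palate epithelium and not in palate mesenchyme lie in or around them. They were selected on the peaks of these same 6 libraries, in the contrast of epithelium with mesenchyme, so their counts, positions, widths and differences are a description and carry no test.

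Chromatin accessibility was profiled by ATAC-seq, in which a transposase cuts and tags DNA that is not wrapped in nucleosomes. Palatal shelves, the paired outgrowths that fuse to form the palate, came from C57BL/6 mouse embryos at E14.5. The epithelium group had 3 libraries of the surface layers, basal cells and periderm together, peeled by hand after trypsin. The mesenchyme group had 3 libraries of the tissue that was left, which was mostly mesenchyme, and about 20000 cells went into each library. The number of embryos or shelves behind a replicate is stated differently in the design text, the protocol and the methods, and the labels call the libraries biological replicates. The epithelium lists held 270003, 349322 and 296695 peaks, and the mesenchyme lists held 295141, 341741 and 315468. Peaks carry a position and no height, so what follows rests on where peaks were called, and the depth in reads is unknown. Chromatin without a listed peak may still be accessible. In these bulk tissues, fewer cells of a type and less open chromatin per cell cannot be told apart.

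Enhancers are stretches of DNA outside promoters that raise transcription of a gene, often from a long distance, and they become accessible where transcription factors bind them. A gene used in several tissues often has an open promoter in all of them and enhancers open in some. The 7 genes do not belong to one pathway. Ptpn13 is a large tyrosine phosphatase with FERM and PDZ domains, Calml3 a calmodulin-like calcium-binding protein of epithelia, and Naaladl2 a little-studied relative of glutamate carboxypeptidase. Creb3l2 is a transcription factor held in the endoplasmic reticulum membrane until it is cleaved, and Arid5b is a DNA-binding protein of chromatin that works with a histone demethylase. Mtap salvages methionine from a by-product of polyamine synthesis, and Apc is the scaffold of the complex that marks beta-catenin for destruction.

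The window of a gene took in the gene body and 100 kb on either side of its start site, on GRCm38 (mm10). Peaks of the 6 lists that overlapped were merged, and merged regions seen in fewer than 2 libraries were dropped. Epithelium-only regions are those with peaks in all 3 epithelium libraries and none in mesenchyme, and mesenchyme-only regions are the reverse. The 7 windows held 62 epithelium-only regions and 4 mesenchyme-only regions among 325 kept regions. Epithelium-only regions thus made up 19.1% of the kept regions of the 7 windows, against 2.98% of all 342690 kept regions. Mesenchyme-only regions made up 1.23% in the 7 windows, against 2.20% of all kept regions. Another 43 regions, or 13.2%, were found in all 6 libraries, a pattern that covered 19.1% of all kept regions. The 4 mesenchyme-only regions lay singly in the windows of Ptpn13, Creb3l2, Mtap and Apc. Calml3, Naaladl2 and Arid5b had none.

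Among all protein-coding genes, 111, or 0.507%, had at least 7 epithelium-only regions, the lowest number among the 7 genes. The median gene had 0, and 54.1% of the 21736 genes with enough peaks to be tested had none. Arid5b had 12, Ptpn13, Calml3 and Mtap had 9 each, Naaladl2 and Creb3l2 had 8 each, and Apc had 7. Set against window length, Calml3 and Mtap shared the highest density of all genes at 4.50 regions per 100 kb. Arid5b followed at 4.19, ranked 3, Creb3l2 at 3.72, ranked 7, Apc at 3.47, ranked 16, and Ptpn13 at 3.30, ranked 17. Naaladl2 stood apart from the other 6 genes, since its 8 regions were spread over a window of 1446 kb. Its density was 0.553 per 100 kb, which ranked 4038.

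**Figure D1:**
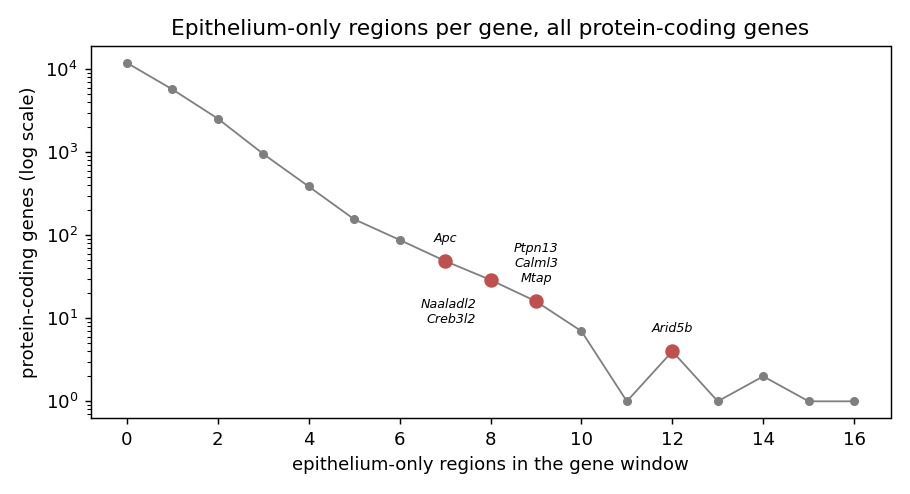
Number of protein-coding genes (y axis, log scale) by the number of epithelium-only regions in the gene window (x axis), with the 7 genes marked in red. The 7 genes lie in the right tail, with 7 to 12 regions, and the highest number of any gene was 16.

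None of the 62 epithelium-only regions overlapped the start of a protein-coding gene, and none had its midpoint in an exon. Introns held 29 of them, and 33 lay between protein-coding genes. Among starts of protein-coding genes, the nearest was that of the gene itself for 55 of the 62. Starts of non-coding genes were nearer to some of these, as at Mtap, where Wincr1 starts 6.93 and 8.38 kb from a pair of regions. Presence calls sit next to other patterns that just missed the rule. In the 7 windows, 19 regions, or 5.85% of the kept regions, had a peak in all 3 epithelium libraries and 1 mesenchyme library, against 2.69% of all kept regions. Another 42, or 12.9%, had a peak in 2 epithelium libraries and no mesenchyme library, against 7.56%. Of the opposite patterns, 8 regions, or 2.46%, had a peak in 1 epithelium and 3 mesenchyme libraries, against 3.77% of all kept regions. A further 14, or 4.31%, had one in 2 mesenchyme libraries alone, against 9.16%, and 7 of the 14 lay at Arid5b.

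**Figure D2:**
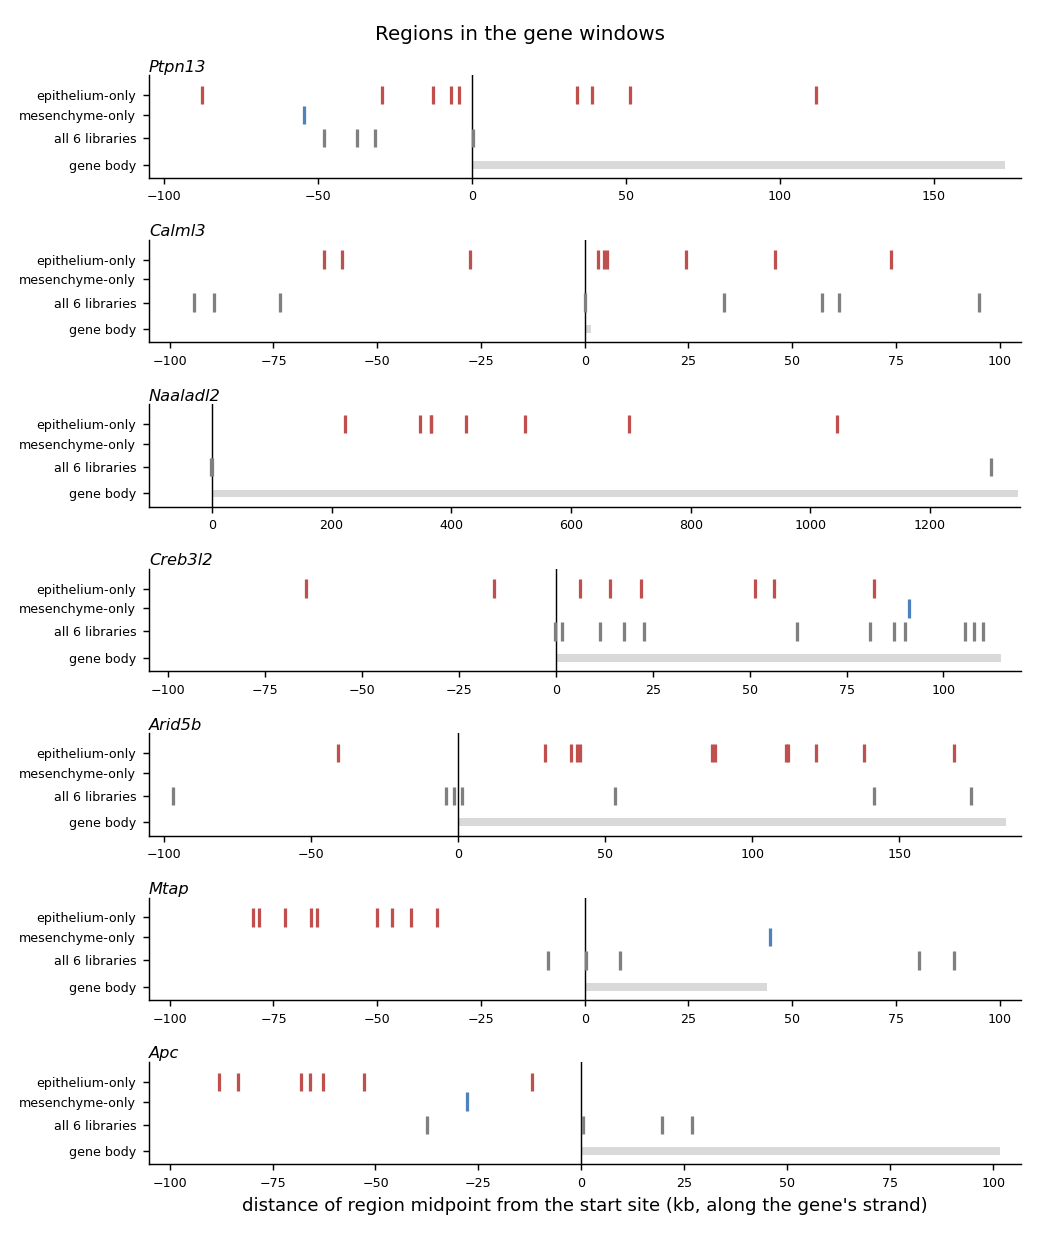
Midpoints of epithelium-only (red), mesenchyme-only (blue) and all-6-library (grey ticks) regions in each gene window, by distance from the start site along the gene's strand in kb, with the gene body as a grey bar. The epithelium-only regions of Mtap and Apc all lie upstream of the start site, those of Naaladl2 all lie inside the gene body, and those of the other 4 genes lie on both sides of the start.

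The number of peaks in each window was counted per library and scaled to the mean list length. In scaled peaks, every epithelium library was above every mesenchyme library at all 7 genes, an order that 9.08% of the 21736 genes tested had. In listed peaks, before scaling, this held for 6 of the 7, all but Creb3l2, and for 4.83% of the genes tested. In the opposite order, all 3 epithelium libraries below all 3 mesenchyme libraries in scaled peaks, were 13.0% of the genes tested. The rule of choice used this contrast, so nothing is read from these counts for the 7 genes. The median log2 difference of scaled peaks (with 1 added), epithelium minus mesenchyme, was 0.62 over the 7 genes and -0.02 over all genes tested. In the fit over all genes with limma, 1.49% of the genes were higher in epithelium and 1.64% lower.

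**Figure D3:**
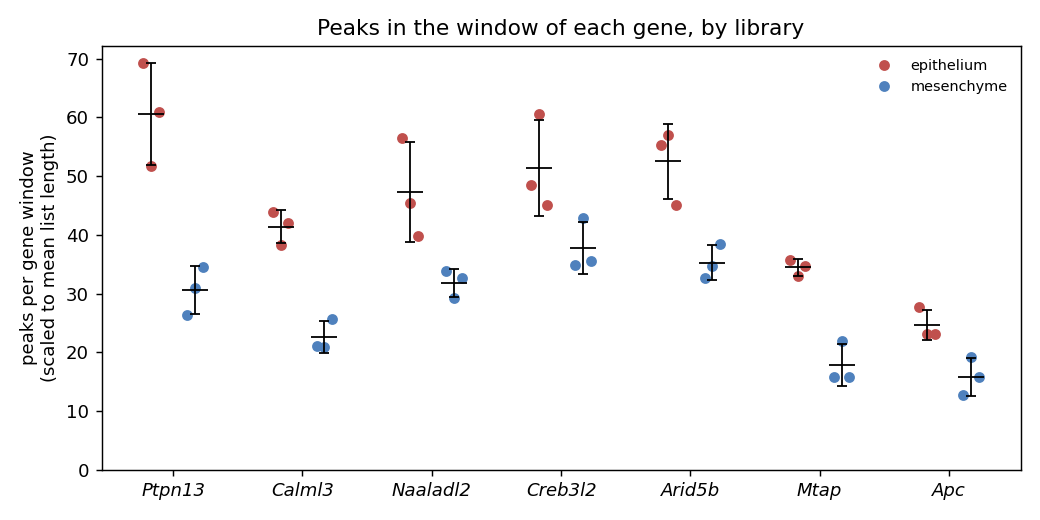
Peaks per gene window scaled to the mean list length (y axis) in the 3 epithelium libraries (red, left) and the 3 mesenchyme libraries (blue, right) of each gene. Bars are the mean and SD of 3 libraries, and the separation is widest at Ptpn13, with means of 60.6 and 30.6, and narrowest at Creb3l2 on the log2 scale.

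Mtap, methylthioadenosine phosphorylase, lies on the plus strand at chr4:89137122-89181081, beside the tumour suppressor Cdkn2a. Its window held 31, 37 and 33 peaks in the epithelium libraries and 15, 24 and 16 in the mesenchyme libraries. The tissues did not overlap. Scaled to list length this was 34.5 ± 1.39 peaks in epithelium against 17.8 ± 3.50 in mesenchyme (SD, n = 3 per tissue), a log2 difference of 0.93 (SE 0.19). All 9 epithelium-only regions lay upstream of the start site, from 79.9 to 35.5 kb away, within a span of 45.0 kb between protein-coding genes. The start site itself was open in every library, under peaks 1335, 1351 and 1546 bp wide in epithelium and 1561, 1971 and 995 bp wide in mesenchyme.

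Non-coding genes occupy this upstream stretch. Wincr1, a long non-coding RNA whose name stands for Wnt-induced non-coding RNA, runs on the plus strand from 89050308 to 89084614 and held 5 of the 9 regions, and the non-coding gene Gm12602 held another. From 89051152 to 89085597, a stretch of 34.4 kb that covers most of Wincr1, no mesenchyme library had any peak. The epithelium libraries had 6, 8 and 9 peaks there. No library had a peak over the start of Wincr1, and the epithelium-only region nearest to it lay 6.93 kb inside the gene. The region of the Mtap window whose peaks were wide in every epithelium library, at 903, 960 and 861 bp, lies in this stretch, 13259 bp from the nearest mesenchyme peak. The central 200 bp, chr4:89064797-89064996, are shown as an example of such a region, on the plus strand, with a TEAD match (GGAATG) in capitals.
Mtap region: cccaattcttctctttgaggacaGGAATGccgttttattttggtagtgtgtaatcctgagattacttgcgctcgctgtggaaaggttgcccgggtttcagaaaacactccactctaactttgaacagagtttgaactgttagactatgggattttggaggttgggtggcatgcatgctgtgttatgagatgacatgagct

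Calml3 is a gene of 1421 bp on the minus strand at chr13:3802896-3804316, next to Calm4 and Calm5, which encode calmodulin-like proteins of the skin. Its window held 38, 43 and 40 peaks in the epithelium libraries and 20, 23 and 26 in the mesenchyme libraries, so the tissues did not overlap. Scaled, the means were 41.4 ± 2.80 in epithelium against 22.6 ± 2.68 in mesenchyme (SD, n = 3 per tissue), with a log2 difference of 0.85 (SE 0.17). All 9 epithelium-only regions lay between protein-coding genes. Along the minus strand their midpoints were at +73.9, +45.8, +24.4, +5.34, +4.54, +3.15, -27.7, -58.4 and -62.9 kb from the start. A group of 3 lay within 6 kb downstream of the start, past the end of the gene, and the 9 together spanned 137.5 kb.

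The start site of Calml3 differed from those of the other genes. No epithelium library and 2 mesenchyme libraries, with peaks of 199 and 335 bp, had a peak over the annotated start base, although the merged region around it had a peak in all 6 libraries. The epithelium peaks in that region were 210, 199 and 298 bp wide, and 199 bp is the narrowest width in each list. Epithelium-only regions here cannot be given to 1 gene by position: 8 of the 9 also lay in the window of Calm4, 8 in that of Calm5 and 3 in that of Net1, a guanine nucleotide exchange factor. Of the 3 upstream regions, 1 was nearest to the start of Calm4 and 2 to that of Calm5. The region with the widest narrowest peak, with peaks of 711, 968 and 885 bp, was the one nearest to Calm4. Its central 200 bp, chr13:3831872-3832071, follow on the plus strand with an E-box match (CAGGTG, here CACCTG on the other strand) in capitals.
Calml3 region: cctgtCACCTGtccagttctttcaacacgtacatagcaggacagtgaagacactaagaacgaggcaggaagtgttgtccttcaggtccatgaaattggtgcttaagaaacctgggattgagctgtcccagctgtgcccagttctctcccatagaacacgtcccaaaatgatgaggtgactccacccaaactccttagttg

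Arid5b, on the minus strand at chr10:68092520-68278740, had the most epithelium-only regions of the 7 genes. The epithelium libraries listed 48, 64 and 43 peaks in its window and the mesenchyme libraries 31, 38 and 39. The lowest epithelium library was 4 peaks above the highest mesenchyme library. Scaled means were 52.5 ± 6.45 in epithelium against 35.3 ± 2.95 in mesenchyme (SD, n = 3 per tissue), and the log2 difference was 0.56 (SE 0.15). Introns of Arid5b held 11 of the 12 regions, between 29.8 and 168.6 kb downstream of the start, the farthest of them nearer to the start of the next gene, Rtkn2. The other region lay 40.6 kb upstream, where the long non-coding RNAs Gm47078 and 4930545H06Rik overlap. Of the 11 gaps between neighbouring regions, 6 were under 10 kb.

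The epithelium libraries had peaks of 355, 394 and 366 bp over the annotated start of Arid5b, against peaks of 201 and 319 bp in mesenchyme libraries 1 and 3 and none in mesenchyme library 2. Larger regions found in all 6 libraries flanked it at +1.48 and -1.38 kb. Inside the gene, 3 epithelium-only regions fell in a stretch of 13.8 kb without any mesenchyme peak, and each epithelium library had 4 peaks there. The region closest to the start within the gene had the widest merged extent of the 62, 1883 bp, with epithelium peaks of 1087, 1883 and 626 bp, and lay 279 bp from the nearest mesenchyme peak. Its central 200 bp, chr10:68248874-68249073, held both an AP-1 match (TGANTCA) and a C/EBP match (TTGCNNAA, on the other strand), in capitals on the plus strand.
Arid5b region: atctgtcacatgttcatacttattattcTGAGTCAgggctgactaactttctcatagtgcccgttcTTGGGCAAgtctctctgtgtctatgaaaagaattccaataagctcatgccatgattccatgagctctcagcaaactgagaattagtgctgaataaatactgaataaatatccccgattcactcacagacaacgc

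Ptpn13 lies on the plus strand at chr5:103425192-103598303. The 3 epithelium libraries agreed closely, with 60, 58 and 58 peaks in the window, against 25, 34 and 35 in the mesenchyme libraries. Scaled to list length, which spreads the epithelium values, the means were 60.6 ± 8.75 in epithelium against 30.6 ± 4.10 in mesenchyme (SD, n = 3 per tissue). The log2 difference of 0.96 (SE 0.15) was the largest of the 7 genes. The phosphatase binds many partners through its PDZ domains.

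The 9 regions of Ptpn13 lay on both sides of its start. Upstream, 5 lay at 87.8, 29.3, 12.9, 6.95 and 4.24 kb from the start, 3 of them within 13 kb. The other 4 lay in introns at 33.9, 38.8, 51.4 and 111.7 kb, the last of which was nearer to the start of Slc10a6, a transporter of steroid sulphates. The start site was open in all 6 libraries, with peaks of 1669, 1790 and 1791 bp in epithelium and 1395, 1504 and 1436 bp in mesenchyme. Inside the gene, the regions at 33.9 and 38.8 kb lay in a stretch of 17.95 kb in which the epithelium libraries had 3, 4 and 4 peaks and no mesenchyme library had one. The region at 38.8 kb, with peaks of 905, 724 and 542 bp, is shown by its central 200 bp, chr5:103463854-103464053, on the plus strand with an NF1 match (TTGGCA) in capitals.
Ptpn13 region: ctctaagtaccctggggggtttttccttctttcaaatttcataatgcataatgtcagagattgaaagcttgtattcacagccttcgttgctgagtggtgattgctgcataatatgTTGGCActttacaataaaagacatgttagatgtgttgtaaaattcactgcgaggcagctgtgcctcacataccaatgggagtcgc

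Creb3l2, on the minus strand at chr6:37327255-37442146, was the gene at which the tissues were least apart. Its window held 42, 68 and 43 listed peaks in the epithelium libraries and 33, 47 and 36 in the mesenchyme libraries, so mesenchyme library 2 lay above epithelium libraries 1 and 3. Both high values came from the longest list of their tissue. After scaling, epithelium had 48.4, 60.6 and 45.1 peaks and mesenchyme 34.8, 42.8 and 35.5, which did not overlap, and the log2 difference was 0.43 (SE 0.15).

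Of the 8 epithelium-only regions of Creb3l2, 6 lay in its introns, between 6.13 and 82.2 kb from the start, and the farthest was nearer to the start of Dgki, a diacylglycerol kinase. The others lay 16.01 kb upstream and at -64.6 kb, the second of these nearer to Akr1d1, a steroid reductase of bile acid synthesis. They were placed among 12 regions open in all 6 libraries, the most of any of the 7 genes, and 7 of the 8 had a mesenchyme peak within 2 kb. The start site was open in all 6 libraries. The narrowest of the 3 epithelium peaks had a median of 279.5 bp in the Creb3l2 regions, against 309 bp for all epithelium-only regions. By library only epithelium 3 was narrower. Median peak widths in epithelium libraries 1, 2 and 3 were 405.5, 490 and 292 bp, against 402.5, 462 and 362 bp in all epithelium-only regions. The widest of the Creb3l2 regions, with peaks of 952, 1327 and 718 bp, lay 179 bp from a mesenchyme peak. Its central 200 bp, chr6:37428003-37428202, are given on the plus strand with a TEAD match on the other strand (CATTCC) in capitals.
Creb3l2 region: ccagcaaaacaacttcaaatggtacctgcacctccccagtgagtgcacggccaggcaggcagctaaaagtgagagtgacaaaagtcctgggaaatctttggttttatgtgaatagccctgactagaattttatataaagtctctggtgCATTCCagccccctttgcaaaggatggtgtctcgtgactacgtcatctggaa

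Naaladl2 is a gene of 1346160 bp on the minus strand at chr3:23798102-25144261. The epithelium libraries listed 49, 51 and 38 peaks in its window and the mesenchyme libraries 32, 32 and 33. Epithelium library 3, the lowest, was 5 peaks above the highest mesenchyme library. Scaled means were 47.3 ± 8.46 in epithelium against 31.8 ± 2.39 in mesenchyme (SD, n = 3 per tissue), with a log2 difference of 0.54 (SE 0.16). All 8 epithelium-only regions lay in introns, between 222.2 and 1045 kb from the start of the gene record. That start was open in all 6 libraries, with peaks of 942, 927 and 810 bp in epithelium and 1085, 904 and 928 bp in mesenchyme.

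The annotation gives a principal transcript of Naaladl2 that starts further inside the gene, at base 24783622. At this start the tissues differed: the epithelium libraries had peaks of 664, 711 and 802 bp over it, and no mesenchyme library had a peak there. Mesenchyme library 1 had a peak of 398 bp beside it, which ended 289 bp short of the start, so the merged region counted as shared with 1 mesenchyme library and is not among the 8. The nearest epithelium-only regions lay 5.00 and 6.34 kb downstream of this start. From the end of that mesenchyme peak, a stretch of 105.3 kb that runs over the start and upstream of it had no mesenchyme peak and 5, 2 and 3 epithelium peaks. The 200 bp before the principal start, chr3:24783623-24783822, are shown because peaks there differed between the tissues. They are printed on the minus strand, which is that of the gene, with a SOX match (ACAAAG) and an NF1 match on the other strand (TGCCAA) in capitals.
Naaladl2 before the principal start: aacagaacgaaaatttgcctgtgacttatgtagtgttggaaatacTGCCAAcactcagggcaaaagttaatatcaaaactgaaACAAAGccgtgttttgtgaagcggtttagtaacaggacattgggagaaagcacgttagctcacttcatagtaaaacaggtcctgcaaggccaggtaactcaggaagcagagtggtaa
The region of Naaladl2 with wide peaks in every epithelium library, 1027, 1180 and 1043 bp, lay 6089 bp from the nearest mesenchyme peak. Its central 200 bp, chr3:24620232-24620431, are on the plus strand with a GATA match (AGATAA) and a SOX match (ACAAAG) in capitals.
Naaladl2 region: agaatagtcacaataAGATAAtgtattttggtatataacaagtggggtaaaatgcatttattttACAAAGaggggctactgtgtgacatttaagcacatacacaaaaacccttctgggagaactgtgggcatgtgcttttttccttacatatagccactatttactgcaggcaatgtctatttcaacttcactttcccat

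Apc lies on the plus strand at chr18:34220924-34322552 and had the fewest regions and peaks of the 7 genes. Its window held 24, 26 and 22 peaks in epithelium and 12, 21 and 16 in mesenchyme, and the lowest epithelium library was 1 peak above the highest mesenchyme library. Scaled means were 24.6 ± 2.62 in epithelium against 15.9 ± 3.24 in mesenchyme (SD, n = 3 per tissue), and the log2 difference was 0.62 (SE 0.22). All 7 epithelium-only regions lay upstream, from 88.1 to 12.1 kb before the start, and the one nearest to the start lay in the transcribed pseudogene Gm10548. The start site was open in every library, under peaks of 1235, 1407 and 1224 bp in epithelium and 1103, 1319 and 1216 bp in mesenchyme. The region farthest from the start had the widest peaks, at 884, 872 and 883 bp. Several of the Apc regions were narrow in some libraries, with a median of 255 bp in epithelium library 1.

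The regions themselves were of ordinary width for epithelium-only regions. Their median width was 595.5 bp, from 287 to 1883 bp, against 597 bp for all 10206 epithelium-only regions. Epithelium libraries 1, 2 and 3 had median peak widths of 452, 508 and 371 bp in them, against 402.5, 462 and 362 bp in all epithelium-only regions. The narrowest of the 3 epithelium peaks had a median of 345 bp in the 62 regions and 309 bp in all epithelium-only regions. Mtap had the widest peaks, with medians of 700, 778 and 462 bp. The nearest mesenchyme peak was more than 2 kb away for 32 of the 62, or 51.6%, against 43.9% of all epithelium-only regions. By gene this was 8 of 9 regions at Mtap and 7 of 8 at Naaladl2, against 1 of 8 at Creb3l2.

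**Figure D4:**
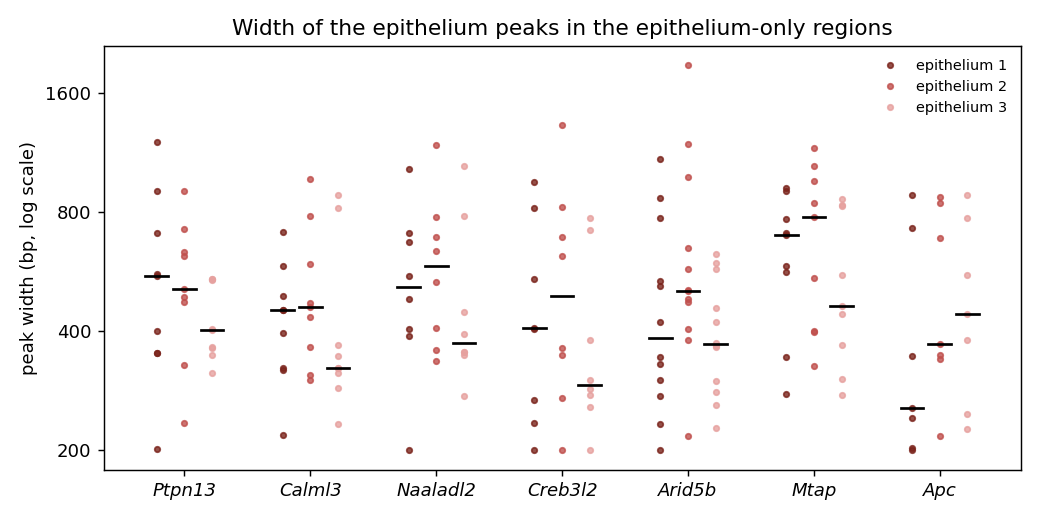
Width in bp (y axis, log scale) of the peaks of epithelium libraries 1, 2 and 3 (dark to light) in the epithelium-only regions of each gene, with the median of each library as a bar. Widths run from 199 to 1883 bp, and the medians of Mtap are 700, 778 and 462 bp.

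Shared regions at the same genes were broader. The 43 regions found in all 6 libraries had a median width of 1106 bp, against 1493 bp for all regions of that kind, and 8 of them overlapped a start site. Among the 7 genes, the median spacing of neighbouring regions was shortest at Mtap, at 5.38 kb, followed by Apc at 7.21 kb and Arid5b at 9.51 kb. At Naaladl2 it was 99.1 kb.

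The central 200 bp of each region was searched on both strands for short consensus sequences of transcription factor families, and matches are a description of letters and not of binding, with no test. Regions that overlap a start site were left out of the comparison sets, and the searched motifs can overlap each other. The Grainyhead-like motif GRHL (AACCNGTT), bound by factors that maintain surface epithelia, was found in 7 of the 62 regions, or 11.3%. It was found in 3.78% of all epithelium-only, 1.03% of mesenchyme-only and 1.45% of all-6-library regions. Arid5b had 3 of the 7 regions, and Ptpn13, Naaladl2, Mtap and Apc had 1 each. The same letters in reverse (TTGNCCAA), a control with the same composition, occurred in 1 of the 62 regions and in 1.65% of all epithelium-only, 2.22% of mesenchyme-only and 2.45% of all-6-library regions.

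The GRHL matches outside Apc are shown with their flanks because the share of this motif lay above that of all epithelium-only regions, a choice made after the values were seen. The region of Naaladl2 held a pair of matches next to each other on opposite strands. The matches are in capitals, on the plus strand.
Arid5b at chr10:68166546-68166585: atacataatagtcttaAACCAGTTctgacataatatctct
Arid5b at chr10:68238374-68238413: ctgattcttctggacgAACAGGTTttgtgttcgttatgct
Arid5b at chr10:68240272-68240311: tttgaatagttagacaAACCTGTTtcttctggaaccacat
Mtap at chr4:89101496-89101535: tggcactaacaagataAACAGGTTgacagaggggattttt
Naaladl2 at chr3:24778588-24778636: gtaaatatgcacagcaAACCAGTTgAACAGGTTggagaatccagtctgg
Ptpn13 at chr5:103395878-103395917: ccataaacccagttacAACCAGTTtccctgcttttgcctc

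The AP-1 motif (TGANTCA) occurred in 8 of the 62 regions, or 12.9%, close to the 12.4% of all epithelium-only regions, against 7.81% of mesenchyme-only and 5.65% of all-6-library regions. Every one of the 7 genes had an AP-1 match, and Calml3 had 2 such regions. TEAD (GGAATG), the partner motif of Yap, was in 12 regions, or 19.4%, as in 19.5% of all epithelium-only and 12.02% of mesenchyme-only regions. SOX (ACAAAG) was in 17 regions, or 27.4%, against 25.3% of all epithelium-only and 13.3% of mesenchyme-only regions, and 4 of the 7 Apc regions had it. The motif of GATA factors (AGATAA) was in 7 regions, 3 of them at Naaladl2, a share of 11.3%, against 11.0% of all epithelium-only and 6.62% of mesenchyme-only regions. For these 4 motifs the 62 regions were thus near the share of epithelium-only regions as a whole.

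KLF (CCNCNCCC), the GC-rich box of Krüppel-like factors, differed by gene. It was in 19 of the 62 regions, or 30.6%, against 18.1% of all epithelium-only, 21.8% of mesenchyme-only, 29.4% of all-6-library and 25.1% of all kept regions. The share thus lay above that of epithelium-only regions and near that of regions open in both tissues. Calml3 had it in 6 of 9 regions and Ptpn13 in 5 of 9, while Naaladl2 had it in 0 of 8. Base composition also differed, with a median GC content of 44.8% in the 62 regions, 46% in all epithelium-only and 51% in mesenchyme-only regions, and Naaladl2 was lowest at 40.8%. NF1 (TTGGCA) was in 2 regions, or 3.23%, against 14.1% of all epithelium-only and 14.2% of mesenchyme-only regions. This low share holds for the central 200 bp alone. In whole regions NF1 was in 18 of the 62, and the comparison sets were not searched in that way. Homeobox (TAATTA) was in 6 regions, or 9.68%, against 4.05% of all epithelium-only regions. The E-box (CAGGTG) was in 10 regions, or 16.1%, against 22.2%. The long TP63 motif and the ETS motif (ACCGGAA) had no match in the 62 regions, and TP63 had one in 0.307% of all epithelium-only regions. With 62 regions a share moves by 1.61 percentage points for each region, so small shares here rest on few regions.

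**Figure D5:**
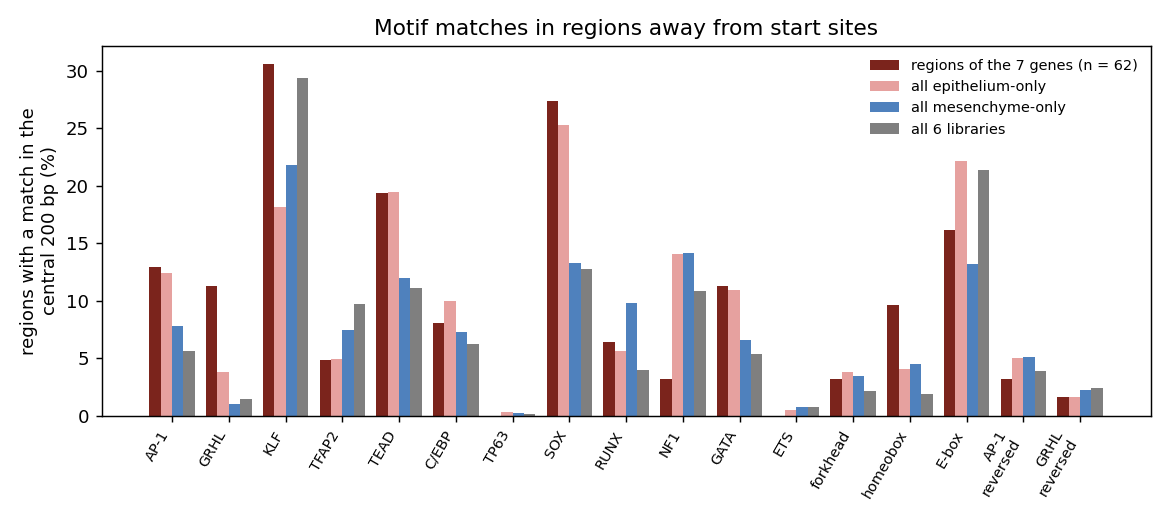
Percent of regions with a match in the central 200 bp (y axis) for each motif (x axis), in the 62 regions of the 7 genes, all epithelium-only, all mesenchyme-only and all-6-library regions away from start sites. GRHL stands at 11.3% in the 62 regions and 3.78% in all epithelium-only regions, and NF1 at 3.23% and 14.1%.

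Relatives and partners of the 7 genes were examined in the same way, in 7 lists with 53 genes that do not include the 7 genes. For these the limma fit over all 21736 genes was read as a test, with Benjamini-Hochberg adjustment. Of the 53 genes, 3 were higher in epithelium and 0 lower, against 1.49% higher and 1.64% lower of all genes tested, and 2 of the 3, Calm4 and Calm5, share the regions that selected Calml3. The median log2 difference of the 53 was 0.02. The 53 windows together held 65 epithelium-only and 57 mesenchyme-only regions. All kept regions included 10206 and 7554 of these kinds. Calm4 and Calm5 had 8 of the epithelium-only regions each, all of which also lay in the window of Calml3. Nothing is read from the order of the 2 totals. The lists were chosen with results of these data known, so their counts are a description. The medians of the 7 lists ran from -0.06 to 0.08, near the -0.02 of all genes.

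Of the 6 calmodulin relatives of Calml3, 2 passed the test, and both are its neighbours on chromosome 13, in windows that share most of its peaks. Calm4 had 39, 39 and 35 peaks in epithelium and 20, 22 and 26 in mesenchyme (log2 difference 0.77, SE 0.18, limma adjusted p = 0.0102). Calm5 had 34, 37 and 31 in epithelium and 17, 18 and 24 in mesenchyme (log2 difference 0.83, SE 0.19, limma adjusted p = 0.00976). Both rest on the same regions as Calml3 and are no separate evidence. Neither passed without the filter on low values or without scaling to list length, where the log2 differences were 0.71 for Calm4 and 0.77 for Calm5. Without epithelium library 1 neither gene passed, with log2 differences of 0.67 for Calm4 and 0.75 for Calm5, and without mesenchyme library 2 Calm5 did not pass either, at 0.73. Calm2, which encodes calmodulin itself, had 3 epithelium-only and 4 mesenchyme-only regions and a log2 difference of -0.18.

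Among the ARID proteins, Arid1b, a subunit of the BAF chromatin remodelling complex, was the 1 gene of 10 that passed. It had 100, 138 and 113 peaks in epithelium and 88, 104 and 95 in mesenchyme, which overlap before scaling (log2 difference 0.34, SE 0.10, limma adjusted p = 0.0499). It lost the call without scaling, where the log2 difference was 0.28. It also lost it without the filter, with a pseudocount of 0.5 and when any 1 of the 6 libraries was left out. In those other settings the log2 differences ran from 0.32 to 0.36. Arid1b held 4 epithelium-only regions and 1 mesenchyme-only region. Arid2 and Phf2, the demethylase that works with Arid5b, held 2 epithelium-only regions each, and Phf2 had 2 mesenchyme-only regions as well.

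The remaining lists had no gene that passed. In the beta-catenin destruction complex, Axin2, a scaffold that Wnt signals induce, and Gsk3b, its kinase, had 3 epithelium-only regions each, and Btrc, which recognises phosphorylated beta-catenin, had 2 epithelium-only and 2 mesenchyme-only regions. Axin2 also had 4 mesenchyme-only regions, and the 9 genes of that list had 9 epithelium-only and 16 mesenchyme-only regions. In methionine salvage and polyamine synthesis, Apip, an enzyme of the same salvage pathway as Mtap, had 3 epithelium-only and 1 mesenchyme-only region, and Mat2a, which makes S-adenosylmethionine, had 2 and 0. Among the phosphatases related to Ptpn13, Ptpn14, which binds Yap, had 5 epithelium-only and 1 mesenchyme-only region with a log2 difference of 0.28 (SE 0.12, limma adjusted p = 0.178). Among the membrane-bound factors related to Creb3l2, Atf6, a sensor of the unfolded protein response, had 4 epithelium-only and 2 mesenchyme-only regions and Creb3l4 had 2 and 1. That list held 7 epithelium-only and 10 mesenchyme-only regions in all, and the phosphatase list held 6 and 8. The 5 relatives of Naaladl2 had 1 epithelium-only and 3 mesenchyme-only regions together.

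Marker genes were counted in the same windows to look at the tissue labels. The 8 epithelium markers had 18 epithelium-only and 6 mesenchyme-only regions among 490 kept regions. The 8 mesenchyme markers had 4 epithelium-only and 21 mesenchyme-only regions among 325. Of all kept regions, 2.98% were epithelium-only and 2.20% mesenchyme-only. Trp63, the master regulator of basal epithelium, had 10 of the 18 among its 27 kept regions. The count of the epithelium markers thus rests largely on this gene. Grhl3 and Epcam had 0 epithelium-only regions, with 3 mesenchyme-only regions at Grhl3 and 1 at Epcam. Markers of endothelium had 4 and 5, of muscle 0 and 2, of nerve and glia 2 and 1, and of red cells 0 and 0. The 4 immune markers had 1 and 6. Their summed scaled peaks ran from 244.5 to 256.0 in epithelium libraries and from 258.6 to 268.0 in mesenchyme libraries, which did not overlap. In every other list the summed peaks of the tissues overlapped. Epithelium markers had 451.1 to 494.8 in epithelium and 435.6 to 471.8 in mesenchyme libraries. Mesenchyme markers had 273.7 to 343.7 in epithelium and 311.6 to 349.2 in mesenchyme libraries. Summed peaks thus did not separate the tissues at their own markers. The part of immune cells in the regions of the 7 genes was not tested.

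For each of the 7 genes, the 2 genes on another chromosome with the most similar peaks over the 6 libraries were found by Euclidean distance of log2 scaled peaks. Naaladl2 was most like Bnc2 (distance 0.25), a zinc finger gene with 6 epithelium-only and 0 mesenchyme-only regions, and Edar (0.27), the ectodysplasin receptor, which had none of either. Creb3l2 was most like Nav3 (0.22) and Wtip (0.25), and Arid5b like Ctnnd2 (0.30) and Atp6v1c2 (0.31). Mtap was most like Ffar4 (0.38) and Cdh18 (0.39), and Apc like Trim9 and Apob (both 0.27). The nearest genes to Ptpn13, Spin2g (0.42) and Xlr3b (0.43), and to Calml3, Btbd35f17 (0.29) and Btbd35f26 (0.30), are members of repeated families on the X chromosome. Reads from near-identical copies cannot be placed with certainty, so peaks in those windows are uncertain.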

How the data were processed

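Accessibility was measured in 6 libraries, and each deposited file lists peak positions (chromosome, start and end) for 1 library, with no other unit, height or score. Before deposit, the authors used Trimmomatic 0.38 for adapters, Bowtie2 for alignment to mm10, SAMtools against PCR duplicates and a filter for fragments under 100 bp. MACS2 2.1.1 then called peaks for each library on its own, without a shifting model or a local background, and replicates were checked with deepTools 2.0. The cut-off for peaks was not given in the sources used here. List length, from 270003 to 349322 peaks, stands in for depth, and a weak region can fall on either side of the threshold.

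Peaks on 21 chromosomes were merged at an overlap of 1 bp and assigned to genes of GENCODE M21 by their midpoint, using the 5' end of the gene record as the start site. A region could belong to several genes. DiffBind, the study's tool for this comparison, takes reads, so presence calls were used instead. Peaks per window were scaled to the mean list length and fitted as log2(scaled peaks + 1) with limma 3.58.1 in R 4.3.3 (mean trend, no replicate block, Benjamini-Hochberg threshold 0.05) over the 21736 genes that averaged at least 1 peak per library, the 7 genes included. For genes with few peaks this scale understates a change. The p-values cover the spread between these libraries, which may be partly technical.

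All 7 genes are named. Relatives are named where they passed the test or held at least 2 epithelium-only regions, and neighbours where a region lay in their body or nearer to their start, except for 1 relative that is not reported here. The example sequences are the regions whose narrowest epithelium peak was widest, from the reference assembly GRCm38, except on chromosome 18. The members and lists were chosen with earlier results of these data known. The scripts were tested on simulated data. Alternatives covered the merging overlap, presence rule, peak width, window, start sites, scaling, pseudocount, filter, replicate block, searched length and leaving out each library.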

Additional observations from a re-analysis of the deposited data

How the results depend on the processing

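The peak lists carry no scores and the read depth is unknown, so a peak missing from 1 list moves a region out of the epithelium-only class. The total of 62 epithelium-only regions came to 104 with a peak in at least 2 epithelium libraries asked for, and to 29 in the gene body alone, where Calml3, Mtap and Apc had 0. The other rules gave 44 to 81 regions. The 44 came with peaks of at least 300 bp, where Apc had 2 regions and Creb3l2 had 5. Leaving out each library, which asks fewer libraries to agree, gave 67 to 77. Within 100 kb of the start alone, Naaladl2 had 0 regions and its log2 difference turned to -0.25 (SE 0.38). In the gene body alone that of Apc turned to -0.071 (SE 0.28), and those of Calml3 and Mtap were 0.03 and 0.02. That of Arid5b was 0.36 within 100 kb of the start alone. The median log2 difference of the 7 genes, 0.62, was 0.79 with lists cut to equal length, 0.30 in the gene body alone and 0.54 to 0.76 without each library.

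Genes called across all windows, 680 (324 higher and 356 lower in epithelium), came to 47 without scaling (31 and 16), to 1 without the filter (0 and 1) and to 330 to 498 without each library. At an unadjusted p of 0.05, limma gave 818 higher and 2091 lower without scaling and 1480 higher and 2131 lower without the filter. The split was 281 higher and 379 lower with equal lists. Motif matches went up to 260 in whole regions, against 102 in the central 200 bp. Regions with a GRHL match went from 7 to 11 and those with an NF1 match from 2 to 18. Over 11 alternatives, Calm4 passed in 8 (adjusted p from 0.00758 to 0.153), Calm5 in 7 (0.00416 to 0.140) and Arid1b in 2 (0.0140 to 0.300).

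The labels give both tissues the same replicate numbers. Libraries with the same number correlated at 0.02, 0.05 and -0.01 across genes in their deviations from the tissue means, and epithelium 3 was closest to mesenchyme 1. Deviations from means of 3 libraries cannot show whether libraries with the same number came from the same shelves, so the pairing stays unknown. With the replicate number as a block, 1000 genes were called (427 higher and 573 lower); the log2 differences cannot change in this balanced block, and their median is 0.62. The cause of these changes was not tested.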
